A study of Homo sapiens with 6 samples.

Results

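The 10 genes described here are aldo-keto reductases, taken by symbol from a gene table of 36459 rows: AKR1A1, AKR1B1, AKR1B10, AKR1B15, AKR1C1, AKR1C2, AKR1C3, AKR1D1, AKR1E2 and AKR7A2. They were measured by poly-A RNA-seq in PC9, a line of human lung adenocarcinoma cells with an activating EGFR mutation, and in PS PC9, the drug-tolerant persister cells that were left when PC9 had been kept for 6 days with erlotinib, which blocks EGFR, at 15 µM. Each condition had 3 libraries, from 3 PC9 cultures and from 9 pooled persister cultures, all of 1 cell line. Erlotinib was present in every persister library and in no PC9 library, so the drug and the persister state cannot be told apart.

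Aldo-keto reductases use NADPH to reduce aldehydes and ketones to alcohols. Their substrates include glucose, retinal, steroid hormones, prostaglandins and the reactive aldehydes that form when lipids are peroxidised, a process central to ferroptosis. In lung tumours several of the genes are known as targets of NRF2, the transcription factor of the antioxidant response.

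Of the 9 genes tested, 7 were lower in PS PC9, 1 was higher and 1 did not pass the test. AKR1B10 fell the furthest, to 18.4% of its PC9 level, and AKR1C3 and AKR1A1 fell to 49.4% and 52.6%. AKR1B1, the aldose reductase gene, rose to 117% of its PC9 level. Across all 14626 genes tested 56.8% were called, 28.1% lower and 28.7% higher, at an adjusted p under 0.01. The near-even split depended on the scaling: of the genes called, 50.5% were higher with TMM, 45.0% with upper-quartile factors and 43.7% by library size alone, while the members stayed at 7 lower and 1 higher. The libraries of the 2 conditions did not overlap for 8 of the tested members, 7 of them with PS PC9 below PC9, against 71.3% and 35.7% of all genes tested. At an adjusted p under 0.05 the number of members called stayed at 8, against 67.9% of genes, and 3 members fell more than 2-fold, AKR1B10, AKR1C3 and AKR1E2, against 5.91% of genes. AKR1D1 had too few counts to be tested. AKR1E2 was tested only because of its counts in PC9, so that the filter favoured a fall and its call cannot be read apart from it. Without AKR1E2, 8 members were tested, of which 6 were lower, 1 was higher, 7 did not overlap and 2 fell more than 2-fold. In bulk RNA a lower level in every cell and a loss from a fraction of the cells cannot be told apart.

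Several of these genes are recent copies of each other, and the part of the sequence that separates them decides which gene a read is counted for. The coding sequences of AKR1C1 and AKR1C2 differed at 19 of 969 bases and shared an identical run of 186 bases, longer than a 75-base read. AKR1C3 differed from AKR1C1 at 83 bases. AKR1B10 and AKR1B15 differed at 62 aligned bases, with an identity of 93.5%, whereas AKR1B1 and AKR1B10 were 77.1% identical. The stretches below, each of 75 coding bases and as long as 1 read, are the windows in which AKR1C1 and AKR1C2, and AKR1B10 and AKR1B15, differ the most. Capitals mark bases that differ from AKR1C1 in the AKR1C lines and from AKR1B10 in the AKR1B15 line. The AKR1C lines are coding bases 88 to 162.
AKR1C1: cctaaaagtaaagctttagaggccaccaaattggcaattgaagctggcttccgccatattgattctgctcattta
AKR1C2: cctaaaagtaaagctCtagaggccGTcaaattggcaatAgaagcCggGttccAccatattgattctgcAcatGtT
AKR1C3: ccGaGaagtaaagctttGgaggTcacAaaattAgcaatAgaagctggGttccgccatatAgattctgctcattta
AKR1B10: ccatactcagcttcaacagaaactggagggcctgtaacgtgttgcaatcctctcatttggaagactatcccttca
AKR1B15: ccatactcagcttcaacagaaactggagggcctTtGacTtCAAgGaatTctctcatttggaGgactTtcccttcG

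AKR1C2 differed from AKR1C1 at 10 of these bases, AKR1C3 from AKR1C1 at 9 and AKR1B15 from AKR1B10 at 11. Over all transcripts of a gene, 27.1% of the 75-base words of AKR1C2 and 18.5% of those of AKR1C1 also occurred in another gene, mostly each other. For AKR1C3 this share was 3.3%, for AKR1B10 5.98% and for AKR1B15 2.2%. AKR1D1 and AKR1E2 shared no such word. The AKR1C1 and AKR1C2 values rest on how Kallisto divided shared reads, so the sums of close copies are given beside each gene.

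The 6 libraries held 29476725 to 34893782 gene counts. The 10 genes made up 0.469% ± 0.00809 (SD, n = 3) of the counts in PC9 and 0.295% ± 0.00907 (n = 3) in PS PC9. The epithelial markers EPCAM, KRT8, KRT18, KRT19, CDH1 and EGFR were at 206 counts per 1000000 (CPM) or more in every library. Each differed between the conditions without overlap. In PC9 and PS PC9, EPCAM was at 373 to 398 and 338 to 346 CPM and KRT8 at 2166 to 2487 and 1285 to 1388. KRT18 was at 1809 to 1965 and 960 to 1028, and KRT19 at 908 to 954 and 435 to 463. CDH1 (206 to 209 and 313 to 315) and EGFR (590 to 639 and 849 to 899) were higher in PS PC9. Of 8 markers of blood, endothelial and fibroblast cells, CD3E and COL3A1 were at 0 in all libraries, and PTPRC, DCN and VWF were at 18 counts or fewer. The others moved with the condition. CD68 was at 73.9 to 75.7 CPM in PC9 and 19.3 to 22.4 CPM in PS PC9, PECAM1 at 3.92 to 4.66 and 0.117 to 0.286 CPM, and COL1A1 at 10.0 to 10.6 and 26.3 to 29.8 CPM. The 8 markers summed to 89.1 to 91.6 CPM in PC9 and 46.5 to 52.9 CPM in PS PC9, and their part in the results was not tested.

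**Figure D1:**
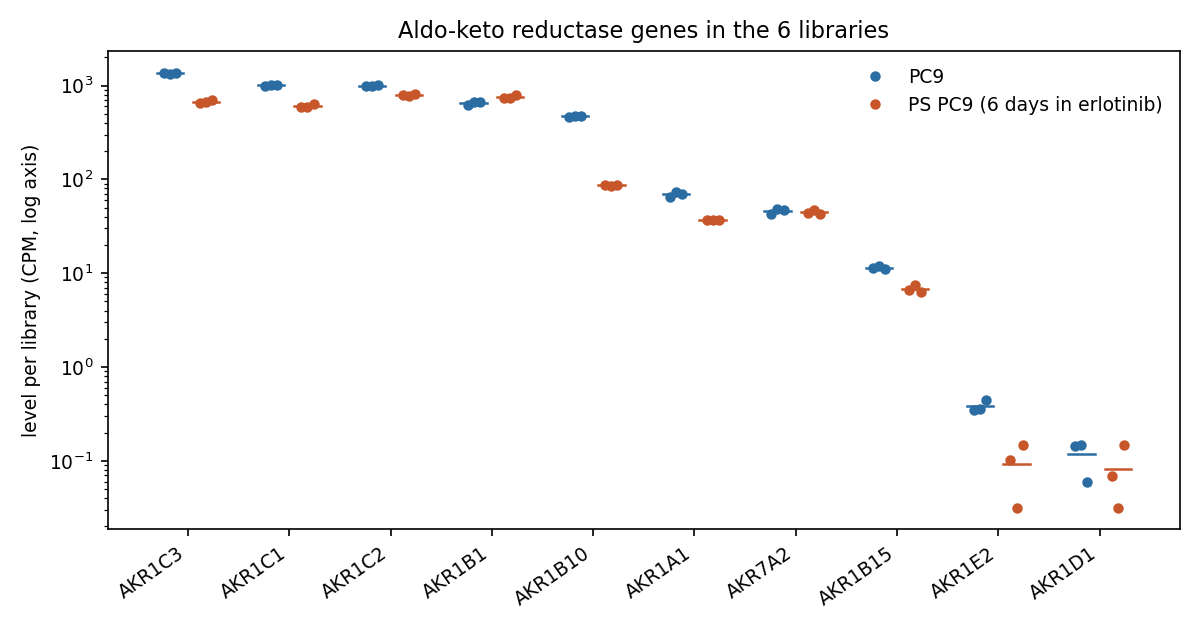
Level of each of the 10 genes in each library, in CPM on a log axis, with 1 point per library, blue for PC9 and orange for PS PC9, and a line at the mean of 3. The AKR1B10 points fall from 467 to 471 CPM in PC9 to 85.7 to 86.8 CPM in PS PC9, whereas those of AKR1B1 lie higher in PS PC9 and those of AKR7A2 overlap.

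Among the AKR1B genes, which lie side by side on chromosome 7, the copies went different ways. AKR1B1 (ENSG00000085662, GRCh38 chr7:134442356-134459284, minus strand) encodes aldose reductase, which turns glucose into sorbitol in the first step of the polyol pathway. It was at 617, 670 and 661 CPM in the PC9 libraries and at 745, 739 and 789 CPM in those of PS PC9. All persister libraries lay above all PC9 libraries. The log2 fold change was 0.22 ± 0.042 (SE; 95% interval 0.13 to 0.31), with an adjusted p of 7.5e-04 (quasi-likelihood test in edgeR, adjusted over all genes after Benjamini and Hochberg).

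AKR1B10 (ENSG00000198074, chr7:134527567-134541412, plus strand) encodes a reductase of retinal and of long-chain aldehydes that is often abundant in lung cancer. Its level was 467, 469 and 471 CPM in PC9 against 86.8, 85.7 and 86.4 CPM in PS PC9. Within each condition the libraries differed by less than 5 CPM, and the groups were far apart. This was a log2 fold change of -2.44 ± 0.034 (adjusted p = 4.12e-12, edgeR), a level 5.43 times lower. Ranked by p-value it was the 4th of all genes tested, and by the size of the fall it was the 135th. Its place by CPM among these genes, not corrected for transcript length, went from 260 in PC9 to 2841 in PS PC9.

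AKR1B15 (ENSG00000227471, chr7:134549110-134579875, plus strand), the adjacent copy of AKR1B10, also encodes a carbonyl reductase. It had 388, 404 and 371 counts in PC9 and 195, 233 and 215 in PS PC9, with no overlap. Its level was 11.4 ± 0.436 CPM and 6.79 ± 0.564 CPM (SD, n = 3 each). The log2 fold change of -0.75 ± 0.083 (adjusted p = 1.38e-05, edgeR) was smaller in size than that of AKR1B10. Of the AKR1B15 counts, 66.4% in PC9 and 72.2% in PS PC9 were assigned to AKR1B15-203, a transcript with a retained intron.

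The ratio of AKR1B10 to AKR1B15 counts was 41.3, 39.4 and 42.6 in PC9 and 12.9, 11.5 and 13.7 in PS PC9. The groups did not overlap, and the log2 ratio differed by -1.70 (exact 2-sided permutation p = 0.1, the smallest that 3 libraries against 3 can give). Summed, AKR1B10 and AKR1B15 fell by 2.37 on the log2 scale (SE 0.033, adjusted p = 4.37e-12, edgeR). This sum was nearly all AKR1B10, with 16071 of 16459 counts in PC9 replicate 1, so that it adds little to the value of AKR1B10 itself.

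Of the 6 other tested genes within 500 kb of the AKR1B genes, CALD1, an actin-binding protein gene, rose by 1.21 ± 0.044 on the log2 scale. SLC35B4 rose by 0.21 ± 0.054, EXOC4 was lower (-0.33 ± 0.035), and BPGM, LRGUK and AGBL3 did not pass the test. Near the AKR1C genes, NET1 was lower (-0.43 ± 0.035) and TUBAL3 did not pass. These neighbours were chosen by position after the values of the family were known.

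The 3 AKR1C genes, which lie next to each other on chromosome 10 and encode hydroxysteroid dehydrogenases, were all lower in PS PC9 and by different amounts. AKR1C3 (ENSG00000196139, chr10:5035354-5107686, plus strand) makes testosterone from androstenedione and is also a prostaglandin F synthase. It was at 1369, 1334 and 1379 CPM in PC9 and at 648, 664 and 703 CPM in PS PC9, so that no libraries overlapped. It changed by -1.02 ± 0.039 on the log2 scale (adjusted p = 3.05e-09, edgeR). By CPM, which is not corrected for transcript length, it ranked 51st of the genes tested in PC9 and 148th in PS PC9.

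AKR1C1 (ENSG00000187134, chr10:4963253-4983283, plus strand) inactivates progesterone. Its level was 992, 1005 and 1022 CPM in PC9 and 597, 589 and 631 CPM in PS PC9. The log2 fold change was -0.73 ± 0.037 (adjusted p = 2.69e-08, edgeR), and every PS PC9 library was lower than every PC9 library. AKR1C2 (ENSG00000151632, chr10:4987775-5018031, minus strand) inactivates dihydrotestosterone. Its level was 985, 987 and 1007 CPM in PC9 and 792, 780 and 819 CPM in PS PC9. The groups were again apart, with a log2 fold change of -0.32 ± 0.034 (adjusted p = 9.23e-06, edgeR).

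The ratio of AKR1C1 to AKR1C2 counts was 1.01, 1.02 and 1.01 in PC9 and 0.753, 0.755 and 0.771 in PS PC9. The log2 ratio differed by -0.42, with no overlap (exact permutation p = 0.1, the smallest possible). AKR1C3 counts relative to the sum of AKR1C1 and AKR1C2 went from 0.692, 0.670 and 0.680 to 0.466, 0.485 and 0.485, a difference of -0.51 on the log2 scale with the same exact p of 0.1. Both ratios differed by more than the spread between replicates. The sum of AKR1C1 and AKR1C2 fell by 0.51 (SE 0.035, adjusted p = 2.64e-07, edgeR), from 1999 ± 26.7 to 1403 ± 42.0 CPM. The sum of all 3 genes fell by 0.70 (SE 0.035, adjusted p = 2.66e-08, edgeR), from 3360 ± 42.7 to 2074 ± 68.1 CPM.

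**Figure D2:**
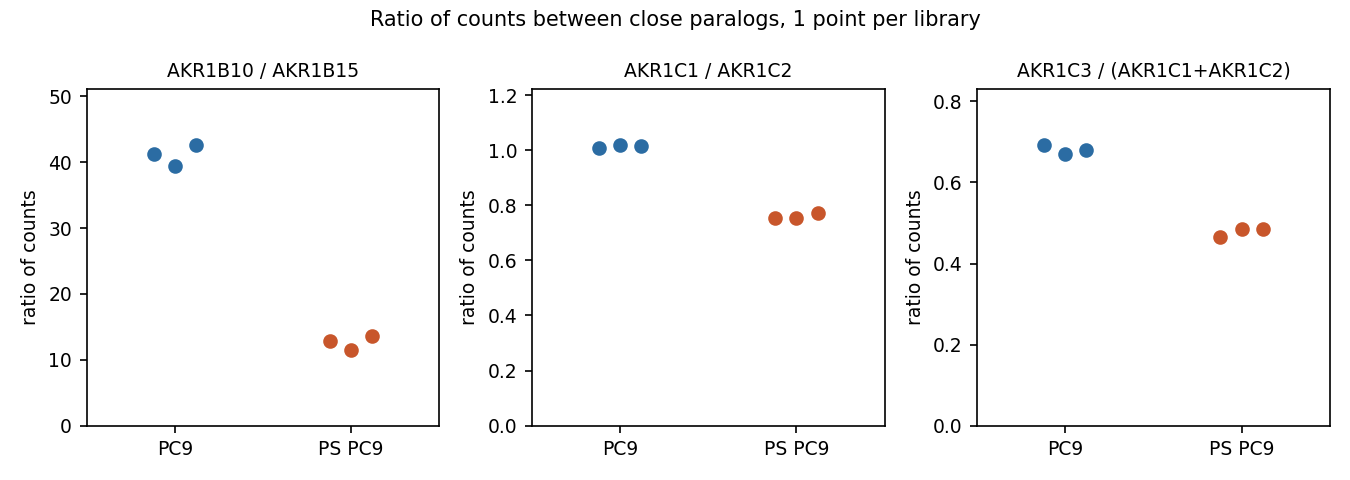
Ratio of counts between close copies, with 1 point per library and each axis starting at 0. AKR1B10 against AKR1B15 falls from 39.4 to 42.6 in PC9 to 11.5 to 13.7 in PS PC9, AKR1C1 against AKR1C2 from 1.01 to 1.02 to 0.753 to 0.771, and AKR1C3 against the sum of AKR1C1 and AKR1C2 from 0.670 to 0.692 to 0.466 to 0.485.

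The remaining members lie outside these groups of copies. AKR7A2 shared 2.87% of its 75-base words with AKR7L, which had 4 to 15 counts per library, and no sum with it was fitted. AKR1A1 (ENSG00000117448, chr1:45550543-45570049, plus strand) encodes aldehyde reductase, which reduces glucuronate and many aldehydes. It was at 65.6, 73.8 and 70.3 CPM in PC9 and at 36.8, 36.9 and 36.6 CPM in PS PC9, with no overlap. Its log2 fold change was -0.93 ± 0.050 (adjusted p = 4.8e-08, edgeR). AKR7A2 (ENSG00000053371, chr1:19303965-19312144, minus strand) encodes a reductase of succinic semialdehyde and aflatoxin dialdehyde. Its libraries overlapped, at 43.0, 48.9 and 47.4 CPM in PC9 and 43.4, 46.7 and 43.3 CPM in PS PC9. The log2 fold change was -0.06 ± 0.057 with a 95% interval of -0.19 to 0.064 (adjusted p = 0.351, edgeR), so that a fall of more than 0.19 or a rise of more than 0.064 lay outside the interval.

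AKR1E2 (ENSG00000165568, chr10:4786629-4848062, plus strand), an anhydrofructose reductase gene, had 12, 12 and 15 counts in PC9 and 3, 1 and 5 in PS PC9. The log2 fold change of -1.97 ± 0.47 passed the test (adjusted p = 0.0033, edgeR) and did not pass with DESeq2 (log2 fold change -2.02) or without PC9 replicate 3, PS PC9 replicate 1 or PS PC9 replicate 2, when it ran from -2.02 to -1.57. AKR1D1, the steroid reductase of bile acid synthesis in liver, had 5, 5 and 2 counts in PC9 and 2, 1 and 5 in PS PC9. A difference was not detectable at this depth. All of the AKR1D1 counts were on AKR1D1-202. Those of AKR1E2 were spread over AKR1E2-201, AKR1E2-205, AKR1E2-207, AKR1E2-208, AKR1E2-209 and AKR1E2-213, each with 0 to 9 counts per library, and a few others below 5% of its counts, and no transcript of either gene was tested.

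**Figure D3:**
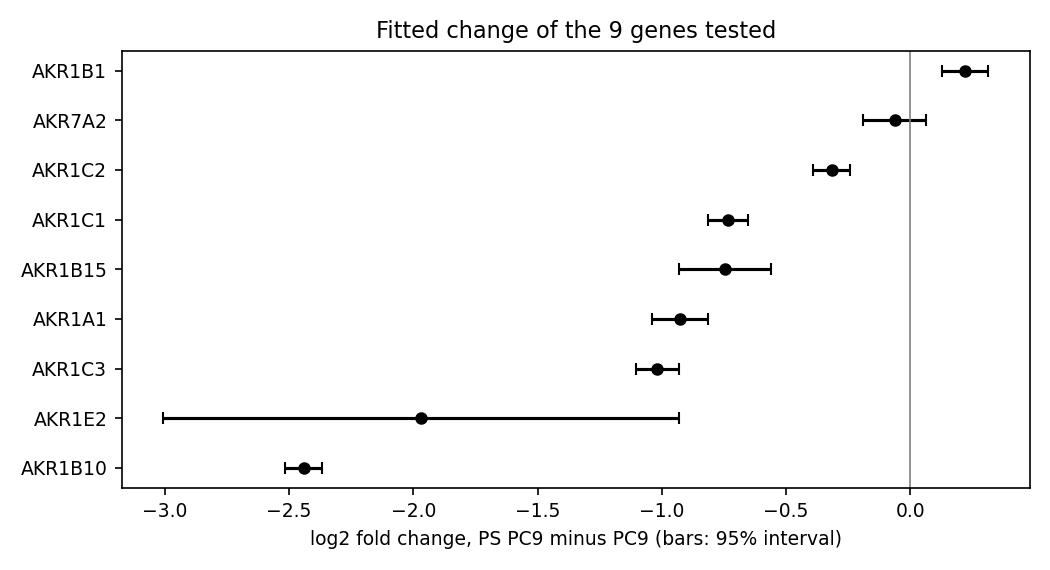
Fitted log2 fold change of PS PC9 against PC9 for the 9 genes tested, with 95% intervals. AKR1B1 at 0.22 lies above 0, the interval of AKR7A2 crosses 0, and the other 7 lie below, down to AKR1B10 at -2.44, with the widest interval for AKR1E2.

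Levels can be set against each other only per length of transcript. In CPM per kilobase, AKR1C3 was highest in PC9 (1149 ± 19.8), followed by AKR1C2 (556 ± 5.93), AKR1B1 (486 ± 20.8), AKR1C1 (379 ± 5.67) and AKR1B10 (296 ± 0.605). AKR1A1 (54.4 ± 2.90), AKR7A2 (34.3 ± 2.27) and AKR1B15 (6.08 ± 0.273) were lower, and each step in this order was larger than the SD of its neighbours. In PS PC9, AKR1C3 (567 ± 24.0) and AKR1B1 (565 ± 21.1) did not differ beyond their spread. AKR1C2 (447 ± 16.1) and AKR1C1 (215 ± 13.1) came next, ahead of AKR1B10 (54.8 ± 0.383), AKR7A2 (32.9 ± 1.37), AKR1A1 (29.2 ± 0.526) and AKR1B15 (3.59 ± 0.28). The values of AKR1C1 and AKR1C2 depend on the transcripts Kallisto assigned to them, whose lengths differ widely.

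The transcript table listed 86 transcripts of the 10 genes, of which 44 were tested. None was higher and 15 were lower, beside 7.8% of all 54499 transcripts called, 3.89% higher and 3.91% lower. The number called was 8 without PC9 replicate 3, PS PC9 replicate 2 or PS PC9 replicate 3, and 24 with DESeq2. For every gene the transcript counts summed to the gene count within 2 counts. AKR1C3-201 held 99.5% of the AKR1C3 counts in both conditions (log2 fold change -1.04 ± 0.038). AKR1B10-201 held 95.6% in PC9 and 94.4% in PS PC9 (-2.49 ± 0.031). Both are the full coding transcripts, and their changes were close to those of their genes.

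AKR1C2 was the only one of 8 members tested for transcript usage in which the shares of its transcripts differed (adjusted p = 2.48e-08 by Simes' method in edgeR), where 1.88% of 10542 genes did. Its coding transcript AKR1C2-202 had 14109, 14516 and 14450 counts in PC9 and 10641, 11799 and 13674 in PS PC9, and its share went from 42.5% ± 0.804 to 47.6% ± 1.47 (SD, n = 3). That of AKR1C2-209 went from 19.0% ± 0.206 to 21.2% ± 0.643. Neither transcript passed the test for a change in level (log2 fold changes -0.18 ± 0.046 and -0.18 ± 0.039). AKR1C2-201, at 27.9% and 26.9% of the counts, was lower by the test (-0.40 ± 0.032).

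Larger falls were seen in 4 transcripts without a defined coding sequence, picked out after their values were seen, which lie upstream of the first exon of AKR1C2-201 and share no base with its exons. Not every transcript from this region fell so far. The coding transcript AKR1C2-209 (chr10:4995834-5017955, minus strand) also starts upstream of that exon, and it changed by -0.18 ± 0.039 without passing the test. AKR1C2-207 (chr10:5005995-5018031) had 1423, 1419 and 1430 counts in PC9 and 340, 369 and 499 in PS PC9, a log2 fold change of -1.75 ± 0.10. AKR1C2-210 (chr10:5006462-5017934) had 985, 919 and 937 counts against 223, 263 and 297 (-1.78 ± 0.078). AKR1C2-208 and AKR1C2-205, at 18 to 202 counts per library, changed by -2.19 ± 0.22 and -2.28 ± 0.36. None of the 4 shared a 75-base word with another gene, whereas 47.3% of those of AKR1C2-202 and 36% of those of AKR1C2-201 were shared, mostly with AKR1C1. AKR1C2-207 and AKR1C2-210 stayed past the threshold under all 13 alternatives tried, AKR1C2-208 under 9 of them and AKR1C2-205 under 4. AKR1C2-204, with a retained intron and 39.3% of its words shared, was lower as well (-1.30 ± 0.15), and kept its call under 9 of the 13.

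Of the AKR1C1 counts, 40.0% ± 0.679 in PC9 and 35.2% ± 1.81 in PS PC9 were assigned to AKR1C1-205, which has no defined coding sequence and shares 37.5% of its 75-base words with another gene. It was lower (-0.94 ± 0.068), as were the coding transcripts AKR1C1-203 (-0.74 ± 0.047) and AKR1C1-202 (-0.48 ± 0.049). A minor transcript of AKR1C3, AKR1C3-205, which starts at chr10:5035358, well upstream of AKR1C3-201, had 133, 141 and 146 counts in PC9 and 33, 25 and 40 in PS PC9 (-2.02 ± 0.23). It was also picked out after its values were seen, and passed under 6 of the 13 alternatives.

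**Figure D4:**
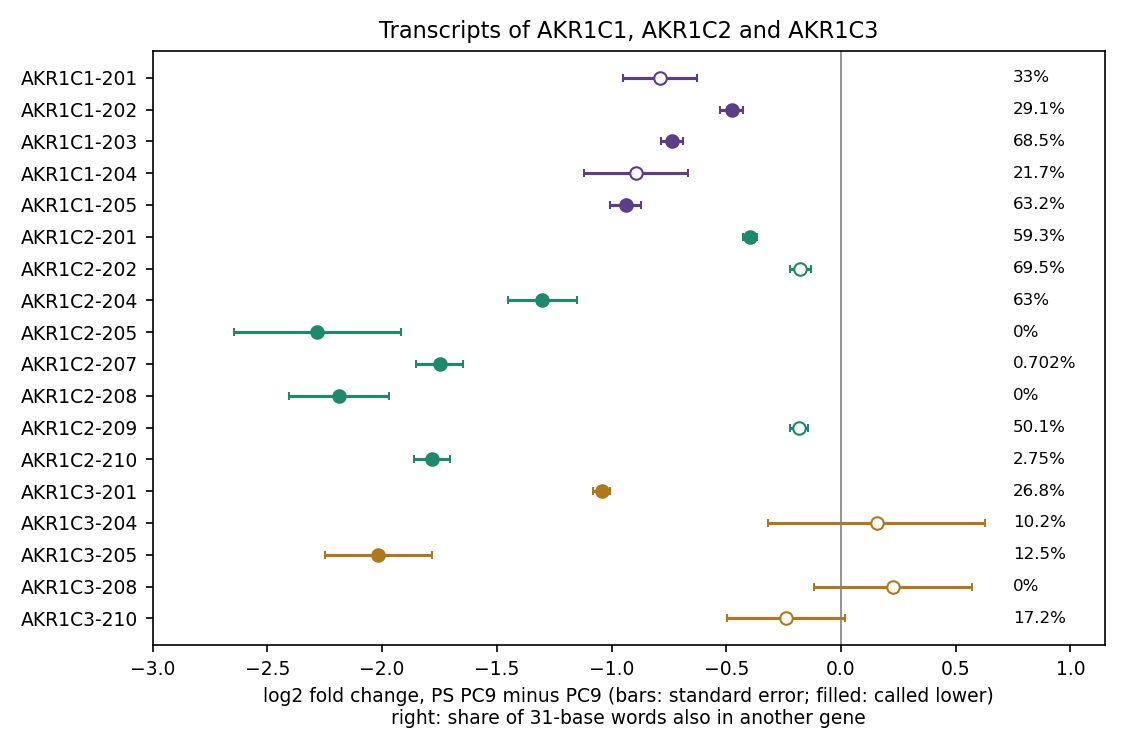
Log2 fold change of the tested transcripts of AKR1C1 (purple), AKR1C2 (green) and AKR1C3 (brown), with standard errors, filled where lower by the test, and at the right the share of 31-base words, the length Kallisto matches, that also occur in another gene. AKR1C2-205, AKR1C2-207, AKR1C2-208 and AKR1C2-210, with shares of 0% to 2.75%, lie between -2.28 and -1.75, and AKR1C2-201, AKR1C2-202 and AKR1C2-209, with shares of 50.1% to 69.5%, between -0.40 and -0.18. Transcripts with shares as high also fell further, AKR1C2-204 (63%) at -1.30, AKR1C1-205 (63.2%) at -0.94 and AKR1C1-203 (68.5%) at -0.74.

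For AKR1A1, AKR1A1-201 held 59.0% of the counts in PC9 and 54.7% in PS PC9 and was lower (-1.06 ± 0.095), as was AKR1A1-202 (-0.88 ± 0.14). AKR1A1-203 (-0.88 ± 0.16) and AKR1A1-208 (-0.48 ± 0.23) did not pass the test. AKR1B1-201, with 96.0% and 96.8% of its gene's counts, was at 0.21 ± 0.048 and did not pass at the transcript level. AKR1B10-202 (-2.11 ± 0.29) was lower, while AKR1B15-202 (-1.06 ± 0.23) and AKR1B15-203 (-0.64 ± 0.14) did not pass. AKR7A2-201, with 97.8% and 96.9% of the AKR7A2 counts, was at -0.10 ± 0.073 and did not pass.

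The 250 bases before the start of AKR1C2 (GRCh38.p14, chr10:5003858-5004107, minus strand) differed from those of AKR1C1 (chr10:4963165-4963414) at 1 of 246 aligned bases, in RefSeq. Those before AKR1C3-201 (chr10:5094164-5094413) were 78.6% identical to those of AKR1C1. The letters TGACNNNGC, the core of the antioxidant response element bound by NRF2, were searched on both strands in RefSeq windows from 250 bases before to 50 after a start. The search covered 12 windows of 8 members and not AKR1B10 or AKR1B15. Sites farther from a start were not searched, so a window without the letters does not show that its gene lacks an element. The letters occurred in 13.3% of 35116 windows of RefSeq and in 2 of these 12, which overlap and both belong to AKR7A2. These windows held 3 matches each. The 2 closest to each other are shown with the motif in capitals, to let the letters be seen, the first at chr1:19312283-19312312 in the direction of the gene and the second at chr1:19312295-19312324 on the opposite strand.
AKR7A2 match, gene strand: ccgggtcagcTGACCGCGCgccaccgcccc
AKR7A2 match, opposite strand: cgcggtcagcTGACCCGGCgggccttgacc

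In a list of 35 other NRF2 target genes, written from general knowledge, 23 were lower, 8 higher and 4 did not pass, with a median log2 fold change of -0.30 against -0.01 for all genes tested. ALDH3A1, an aldehyde dehydrogenase gene, went from 1661 ± 83.8 to 293 ± 10.7 CPM (-2.51 ± 0.047), and NR0B1, a nuclear receptor gene, was lower (-1.98 ± 0.053). TXNRD1, thioredoxin reductase, rose from 1954 ± 30.4 to 3009 ± 27.1 CPM (0.62 ± 0.031), and SRXN1, sulfiredoxin, rose by 0.50 ± 0.032.

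Of 10 genes that control NRF2, 4 were higher, 2 lower and 4 did not pass. NFE2L2, which encodes NRF2, was at 230.2 ± 5.77 CPM in PC9 and, in PS PC9, at 230.5 ± 3.11 CPM (0.00 ± 0.035, adjusted p = 0.962, edgeR), and KEAP1, its inhibitor, was at -0.12 ± 0.055 (adjusted p = 0.0779, edgeR). NFE2L1, a related factor, and SQSTM1, which binds KEAP1, rose by 0.83 ± 0.037 and 0.73 ± 0.037. BACH1, a repressor of NRF2 targets, was lower (-0.69 ± 0.049), as was MAFF (-1.44 ± 0.11).

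Of 21 other enzymes that clear carbonyls, 16 were lower, 3 higher and 2 did not pass, with a median of -0.45. ALDH1A1, another aldehyde dehydrogenase gene, was lower (-4.12 ± 0.16), from 9.42 ± 0.872 to 0.532 ± 0.123 CPM. ALDH1A3, which makes retinoic acid from retinal, rose from 563 ± 5.35 to 1076 ± 5.07 CPM (0.94 ± 0.031), and ALDH1B1 rose by 0.75 ± 0.052. CBR1, CBR3 and ALDH3A1 stand in both this list and the NRF2 list. ALDH1A1 and ALDH1A3 also stand in the list of retinoid metabolism, and DCXR in that of polyol and fructose metabolism. The counts of these lists are therefore not separate.

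In retinoid metabolism, 19 of 23 genes were tested, of which 10 were lower, 3 higher and 6 did not pass (median -0.26). CRABP2, a retinoic acid carrier, was lower (-1.86 ± 0.042), and RDH13, a retinol dehydrogenase gene, rose by 0.89 ± 0.052. In polyol and fructose metabolism, where aldose reductase acts, 12 of 13 genes were tested, with 7 lower, 1 higher and 4 not passing (median -0.19). ALDOC, an aldolase gene, and FBP1, a gluconeogenic phosphatase gene, were lower (-3.03 ± 0.075 and -0.54 ± 0.065), whereas HK2, a hexokinase gene, rose by 0.44 ± 0.054. SORD, which turns the sorbitol made by AKR1B1 into fructose, went from 120.1 ± 1.25 to 107.9 ± 4.95 CPM (-0.15 ± 0.042, adjusted p = 0.0069, edgeR).

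In steroid and prostaglandin metabolism, 22 of 28 genes were tested, with 9 lower, 5 higher and 8 not passing, and a median of 0.07. PTGS2, a cyclooxygenase gene, rose by 1.86 ± 0.10, from 3.22 ± 0.445 to 11.7 ± 0.482 CPM. PTGS1, the other cyclooxygenase gene, was lower (-2.84 ± 0.28), with 57, 59 and 41 counts in PC9 and 7, 7 and 6 in PS PC9. SRD5A1, which makes dihydrotestosterone, rose by 0.77 ± 0.047. HSD17B8 (-1.53 ± 0.099) and HSD17B11 (-1.14 ± 0.050), both hydroxysteroid dehydrogenase genes, were lower. Nothing here was tested as a set. Among all genes tested 56.8% were called, 28.1% lower and 28.7% higher. The share called was 60% of the NRF2 control genes, 63.6% in steroid and prostaglandin metabolism, 66.7% in polyol and fructose metabolism and 68.4% in retinoid metabolism. It was 88.6% of the NRF2 target genes and 90.5% of the other carbonyl-clearing enzymes.

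**Figure D5:**
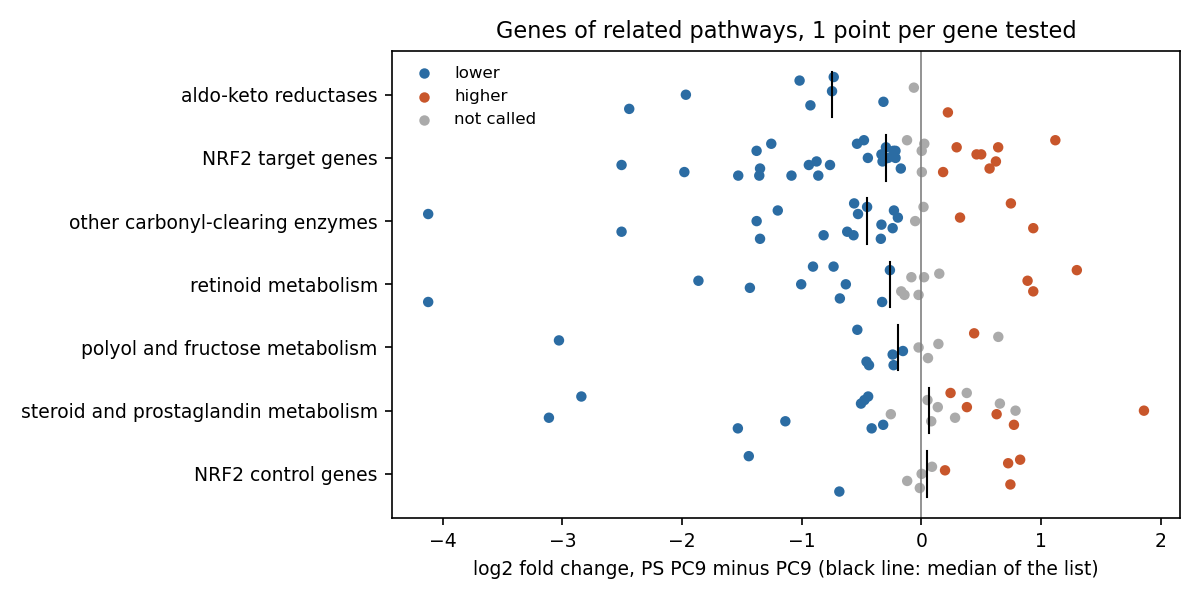
Log2 fold change of each gene tested in the aldo-keto reductase family and in 6 related lists, blue where lower and orange where higher by the test, grey where it did not pass, with a black line at the median of each list. The medians of the 6 lists run from -0.45 for the other carbonyl-clearing enzymes and -0.30 for the NRF2 target genes to 0.07 for steroid and prostaglandin metabolism. That of the family, with AKR1E2 counted, is lower, at the -0.75 of AKR1B15. The family and every list hold genes on both sides of 0.

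Of 8 further genes of the superfamily listed beside these, 7 were in the gene table and 5 were tested. Only KCNAB1, a potassium channel subunit gene, passed, with a log2 fold change of -0.56 ± 0.16 (adjusted p = 0.0095, edgeR). It did not pass with DESeq2, limma voom or counts summed from transcripts, or without PC9 replicate 1 or 3 or PS PC9 replicate 1 or 2. AKR1C4, the liver copy of the AKR1C genes, had at most 1 count per library. Among the 18 other symbols of the family in the table, 11 were at 0 in all libraries and 3 had 10 or more counts in a library. The pseudogene AKR1C7P had 222, 160 and 172 counts in PC9 and 107, 84 and 119 in PS PC9, and was lower (-0.73 ± 0.15, adjusted p = 0.0016, edgeR). AKR1C8P, with 11 to 25 counts, and AKR7L, with 4 to 15 counts, did not pass.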

How the data were processed

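Bulk RNA-seq of 3 PC9 and 3 PS PC9 libraries was used, grouped by the sample labels. The dose and the numbers of cultures are from the study's methods. The authors trimmed and filtered paired 75-base reads, pseudoaligned them to Ensembl transcripts with Kallisto 0.46.1 (GRCh38.p13 in the submitters' processing notes), and deposited its estimated counts as whole numbers, not normalised, per gene symbol and per transcript. How uncertain Kallisto was in dividing reads between copies is not in these counts and enters no test. Nothing says which persister cultures went into which library, so p-values measure the spread between these libraries.

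The counts were fitted with edgeR 4.0.16 (R 4.3.3), after filterByExpr and TMM scaling, by glmQLFit, and the conditions were compared by glmQLFTest with no block. P-values were adjusted over all genes by the Benjamini-Hochberg method, and the limit was 0.01. CPM are counts per 1000000 of the TMM-scaled library size. The standard error is the log2 fold change divided by the root of the quasi-likelihood F. Sums of copies were each fitted in place of the single rows. Transcripts were fitted alike, and usage was tested with diffSpliceDGE. Ratios had 1 added to each count. Total gene counts were 29476725 to 34893782 per library. Taken over all genes, the spread between replicates was larger than counting error, whereas for AKR1D1 and AKR1E2 the few counts limit the precision. No replicates agreed within sampling noise (chi-square per degree of freedom 3.53 to 21.1).

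Gene positions, transcripts and coding sequences are from GENCODE 44 and promoter windows from RefSeq (both GRCh38). Of 36459 symbols 27685 were matched, and of 188753 transcripts 167067, of which 14064 had another version number. Words of 31 and 75 bases were compared with all transcripts of other genes. In each list, up to 2 genes with the smallest p per direction are named. Of each member, the transcripts with at least 5% of its counts in either condition are named. NFE2L2, KEAP1, SORD, PTGS1 and minor transcripts were added after their values were seen. The members and lists were chosen with earlier results of these data known. The tests were checked on simulated counts at 1 fixed dispersion. In these, 200 genes, 200 transcripts or, for usage, 1 transcript in each of 200 genes changed by a log2 fold change of 1. Of the changes, 90.5% were recovered among 14491 genes, 64.0% among 52694 transcripts and 59.0% for usage in 10542 genes. Of the calls made, 1.09%, 0.775% and 1.67%, in the same order, were wrong. Far fewer genes changed in this check than were called in the data, so it does not cover that setting. Alternatives were DESeq2 1.42.0, limma 3.58.1 (voom), other scalings and thresholds, no filter, a replicate block, counts summed from transcripts, and leaving out each library.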

Additional observations from a re-analysis of the deposited data

How the results depend on the processing

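Under the alternatives tried, no fold change of a member or of a sum or ratio of members changed direction. Nor did that of a member transcript named or of a list gene named by its p-value. These alternatives were not run for NFE2L2, KEAP1, SORD, PTGS1, the other pseudogenes and family symbols or the neighbouring genes. The split of all genes called did turn, from 4193 higher and 4114 lower to 3726 and 4562 with upper-quartile factors and 3604 and 4652 by library size alone, and the median of all genes moved from -0.01 to 0.0024 without the expression filter. Among the 9 tested members, the calls held under every other tool, scaling and left-out library at an adjusted p under 0.01, except that of AKR1E2. AKR1E2 missed the limit with DESeq2 and without PC9 replicate 3, PS PC9 replicate 1 or PS PC9 replicate 2, so that 7 or 8 members were called without 1 library. Scaling by library size alone moved the median of all genes by -0.05, and AKR1B1 then stood at 0.17. Asking also for a change above 2-fold left 3 members (AKR1B10, AKR1C3 and AKR1E2) of 1691 genes, 11.6% of those tested. It left 9 NRF2 target genes, 1 gene of NRF2 control, 5 of retinoid metabolism, 5 other carbonyl-clearing enzymes, 1 of polyol and fructose metabolism, 5 of steroid and prostaglandin metabolism and 0 of the other superfamily genes. The sums of AKR1C1 and AKR1C2 (-0.51) and of all 3 AKR1C genes (-0.70) lie under that 2-fold limit.

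The other superfamily genes passing were 0 in place of 1 with DESeq2, limma voom and counts summed from transcripts, and 0 to 1 without 1 library. The member transcripts that passed, 15 with edgeR, numbered 24 with DESeq2, 23 at an adjusted p under 0.05, and 8 to 12 without 1 library. Of 13 alternatives, AKR1A1-202 passed under 4, AKR1B10-202 under 6, AKR1C1-202 under 8, and AKR1A1-201 and AKR1C2-201 under 12 each. Some transcripts that did not pass in the main fit gained a call. AKR1A1-203, AKR1B1-201, AKR1B15-202, AKR1B15-203, AKR1C2-202 and AKR1C2-209 each stayed without a call under 12 of the 13 and passed under the other. The number was 8 without PC9 replicate 3, PS PC9 replicate 2 or PS PC9 replicate 3. The uncertainty of Kallisto's assignment did not enter these tests, and genes with few counts, such as AKR1D1 and AKR1E2, limit what the depth can show.

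Whether the replicate numbers pair the samples is not settled by these data. The correlations were 0.124, 0.0236 and 0.0215 for same-numbered libraries and -0.117 to 0.0971 for the others. With the replicate number as a block, 8 members were called and 7 transcripts, the latter in place of 15. Of all genes, 4382 were then higher and 4289 lower, in place of 4193 and 4114.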
